A study of Mus musculus with 6 samples.

Results

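H2-K1, H2-D1 and Tap1, 3 genes of antigen presentation by MHC class I on mouse chromosome 17, were taken as a set of named genes, and the m6A listed within each gene body was described gene by gene. They were picked for what they do, and their measured values were not used in the choice, though earlier results of these data were known. Of 567667 rows listed in the whole table, each a genome position with an m6A value in every sample, 40 lay in H2-K1, 43 in H2-D1 and 38 in Tap1, which makes 121 in all. There were 81446 rows with a mean over 6 samples of at least 10% m6A, and 18 of them lay in these genes, 3 in H2-K1, 7 in H2-D1 and 8 in Tap1.

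MHC class I molecules display short peptides from inside the cell to CD8+ T cells. H2-K1 and H2-D1 encode the classical heavy chains K and D of the mouse, which bind the peptide and pair with β2-microglobulin. Tap1 encodes a subunit of the transporter that moves peptides from the cytosol into the endoplasmic reticulum, where heavy chains are loaded. N6-methyladenosine (m6A) is a methyl mark set on adenosines of mRNA, mostly within the motif called DRACH, by a complex that takes its methyl group from S-adenosylmethionine, and it is known to bear on splicing, translation and decay. In many mRNAs it gathers near the stop codon and in long internal or terminal exons.

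The samples were HCICs, hepatocellular carcinoma initiating cells grown in culture from livers of male mice on a C57BL/6 background that had received the carcinogen diethylnitrosamine (DEN). MTH-D cells carried a lentiviral CRISPR-Cas9 knockout of Mthfd1l, an enzyme of mitochondrial one-carbon metabolism that makes formate, and MTH-WT cells were their wild-type counterparts, made with the empty vector. There were 3 samples of each group, numbered 1 to 3 in the labels. Per the methods, each MTH-D or MTH-WT culture grew from a single-cell colony, so that each is a clone. The study describes the knockout in 3 HCIC lines from 3 mice, 1 control (CTL) and 2 double knock-in (DKI). DKI mice carry point mutations in MDM2 and MDMX. For the m6A sequencing it names the lines HCIC-1 (CTL) and HCIC-3 (DKI). The study's text found only a small deletion in 1 of the MTH-D lines and set that line aside, but the labels do not tie the numbers to lines, so all 6 samples were used here and the samples numbered 1 and 3 were also taken alone. Nanopore direct RNA sequencing, which reads RNA strands without copying them, was run on 1000 ng of total RNA per sample, with a flow cell for each and up to 72 h of run time.

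The deposited values are fractions of m6A, given here in percent. No read counts or coverage come with them, so the depth is unknown, no interval was computed, and the level of the knocked-out gene could not be checked. Over all rows, the mean m6A of a sample lay between 6.34% and 7.68%, and the share of rows listed at exactly 0 between 29.6% and 40.2%. Sample 2 had the highest mean over all rows in both groups, 7.45% in MTH-WT and 7.68% in MTH-D. Sample 3 had the lowest, 6.57% and 6.34%. H2-D1 and Tap1 show the same order in both groups, so it is not particular to them. In H2-K1 sample 2 was also the highest in both groups, but sample 1 was the lowest. Positions are numbered from 1 on GRCm39, and distances are counted from the ends of the gene bodies used. Annotation of that build was not used here, so positions were not assigned to exons, introns or UTRs. The rows carry no strand, and the strand named for each gene comes from GENCODE M21.

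H2-K1 (ENSMUSG00000061232.16) lies on the minus strand at chr17:34214992-34219322, a body of 4331 bases. Its mean m6A over 40 positions was 3.69%, 4.56% and 4.31% in MTH-WT samples 1, 2 and 3, and 3.66%, 5.35% and 4.01% in MTH-D samples 1, 2 and 3. The lowest and the highest of the 6 values were both MTH-D samples, and the groups overlapped. The MTH-WT mean was 4.19% ± 0.45 (SD, n = 3) and the MTH-D mean 4.34% ± 0.893 (SD, n = 3), and the 0.154 percentage points between them were smaller than the spread between samples (two-sided exact permutation test, p = 0.9). Within same-numbered samples, MTH-D differed by -0.028, 0.788 and -0.298 points. Without MTH-D sample 2 the difference of means turned to -0.351 points, and in the samples numbered 1 and 3 alone it was -0.163 points.

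H2-D1 (ENSMUSG00000073411.11) lies on the plus strand at chr17:35482071-35486474, a body of 4404 bases. Its mean m6A over 43 positions was 3.66%, 4.05% and 3.30% in MTH-WT samples 1, 2 and 3, and 3.47%, 4.15% and 3.14% in MTH-D samples 1, 2 and 3. Sample 2 was the highest and sample 3 the lowest in both groups, and the groups overlapped over nearly their whole range. The MTH-WT mean was 3.67% ± 0.373 (SD, n = 3) and the MTH-D mean 3.59% ± 0.519 (SD, n = 3), and the difference of -0.081 points was smaller than the spread between samples (two-sided exact permutation test, p = 0.8). The same-numbered differences were -0.183, 0.106 and -0.166 points. The sign of the difference turned when MTH-WT sample 2 (0.109 points) or MTH-D sample 3 (0.146 points) was left out.

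Tap1 (ENSMUSG00000037321.17) lies on the plus strand at chr17:34406528-34416200, a body of 9673 bases. Its mean m6A over 38 positions was 11.4%, 12.03% and 10.2% in MTH-WT samples 1, 2 and 3, and 9.46%, 10.8% and 8.90% in MTH-D samples 1, 2 and 3. Each MTH-D sample lay below the MTH-WT sample of its number, yet the groups overlapped, since MTH-D sample 2 was above MTH-WT sample 3. The group means were 11.2% ± 0.910 (SD, n = 3) and 9.72% ± 0.970 (SD, n = 3), a difference of -1.50 points or -13.4% of the MTH-WT mean, which did not pass the test (two-sided exact permutation test, p = 0.2). The same-numbered differences were -1.94, -1.24 and -1.33 points, lower in 3 of 3 pairs, and the exact sign-flip test over the pairs gave p = 0.25, the smallest value that 3 pairs allow. With 3 samples against 3 the smallest p of the permutation test is 0.1, so neither test could reach 0.05.

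**Figure D1:**
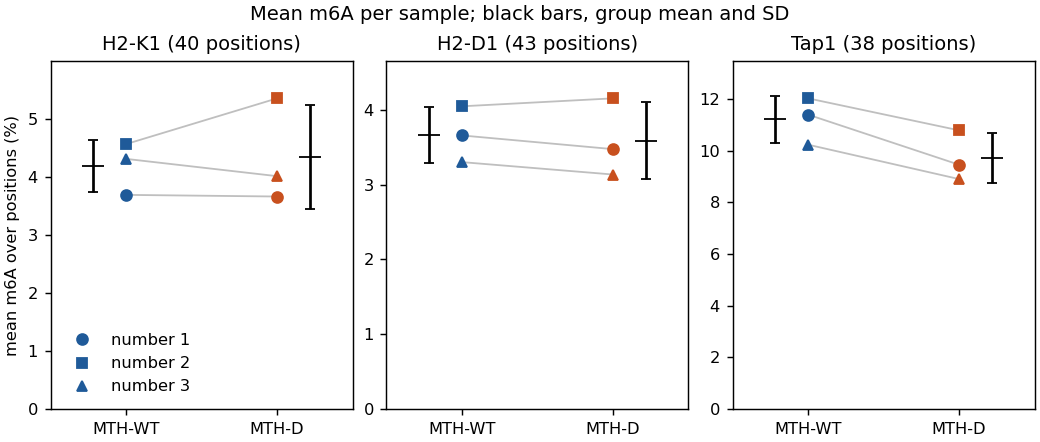
Mean m6A in percent over all listed positions of H2-K1, H2-D1 and Tap1 (vertical axes, each from 0), for the 3 MTH-WT samples in blue and the 3 MTH-D samples in orange. Marker shape and the grey lines join samples of the same number, and black bars give the group mean and SD. Tap1 was lower in MTH-D along all 3 lines, from 11.4% to 9.46%, 12.03% to 10.8% and 10.2% to 8.90%, whereas the lines of H2-K1 and H2-D1 go in both directions.

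To read these values against the rest of the table, the genes were fitted together with windows of 5 kb along all chromosomes, 27208 features with at least 5 rows each, in limma. The model gave H2-K1 a difference of 0.154 points (SE 0.648, adjusted p = 1), H2-D1 -0.081 points (SE 0.535, adjusted p = 1) and Tap1 -1.50 points (SE 0.905, unadjusted p = 0.135, adjusted p = 1). None of the 3 genes passed an adjusted p of 0.05, and of all features 0% did. At an unadjusted p under 0.05, again none of the 3 genes passed, against 2.98% of all features. With the sample number as a block, the limma p of Tap1 was 0.0184 unadjusted and 0.986 adjusted over all features, and 4.96% of all features had an unadjusted p under 0.05 in that fit. Tap1 held a lower difference than all but 3.28% of the features, while 56.1% of the features were lower in MTH-D, with a median difference of -0.047 points. These are features of any level, and Tap1 averaged 10.5% against 2.16% for the median feature. Among single rows the 5th percentile of the difference was -1.33 points at 0 to 2% and -7.17 points at 10 to 20%. The rank of Tap1 among features of like level was not computed. Groups that did not overlap, with MTH-D lower, occurred in 3.18% of the features and in none of the 3 genes.

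The level of m6A set Tap1 apart from both heavy chain genes in these cells. In 6 of 6 samples the mean over listed positions was higher in Tap1 than in H2-K1 or H2-D1, and in 6 of 6 it was higher in H2-K1 than in H2-D1, although the H2-K1 and H2-D1 values overlapped across samples. The median feature averaged 2.16%, and the level of H2-K1, H2-D1 and Tap1 exceeded that of 62.9%, 59.9% and 80.5% of the features. These means depend on which positions are listed and are not the amount of m6A per transcript. The gap between Tap1 and H2-K1 was 7.71, 7.47 and 5.93 points in the MTH-WT samples and 5.80, 5.44 and 4.89 points in the MTH-D samples. The gaps of MTH-D all lay below those of MTH-WT, a difference of -1.66 points between the group means (two-sided exact permutation test, p = 0.1, the smallest it allows). Between Tap1 and H2-D1 the gap differed by -1.42 points in MTH-D, again without overlap (p = 0.1, exact permutation test), and between H2-K1 and H2-D1 it changed by 0.235 points with overlap (p = 0.6, exact permutation test). These were the 3 pairs of genes compared, and the comparison was chosen after the values were seen.

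In H2-K1 and Tap1 the 3 highest positions carried most of the summed m6A, and in H2-D1 it was spread over more positions. In H2-K1, 28 of 40 positions averaged under 2% and 9 between 2% and 10%, and the 3 highest held 63.4% of the summed m6A. In H2-D1 31 of 43 averaged under 2%, and the 3 highest held 38.7%. In Tap1 20 of 38 averaged under 2%, and the 3 highest held 58.8%. The median position was 0.606% in H2-K1, 0.880% in H2-D1 and 1.38% in Tap1. Values of exactly 0 made up 12.1% of the values in H2-K1, 16.7% in H2-D1 and 39.9% in Tap1, against 34.1% over all rows. At 29 of the 38 Tap1 positions at least 1 sample stood at exactly 0 or 100%, compared with 12 of 40 in H2-K1 and 21 of 43 in H2-D1.

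The positions were not spread evenly along the genes, and the highest ones lay at opposite ends. Positions were grouped where neighbours were at most 500 bases apart, a division made after the values were seen, which is given as a description with no test. In H2-K1, 30 positions between 15 and 1522 bases before the 3′ end held all 3 positions of at least 10%, and the 10 positions toward the 5′ end held none, with a highest mean of 3.98%. In H2-D1, 33 positions between 8 and 1694 bases before the 3′ end held all 7, and the 10 toward the 5′ end none, with a highest mean of 7.60%. In Tap1, 13 positions between 213 and 765 bases after the 5′ end held 5 of the 8, among them all 3 that averaged at least 50%. The remaining 3 were among 11 positions between 19 and 456 bases before the 3′ end, and none between these stretches reached 10%.

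**Figure D2:**
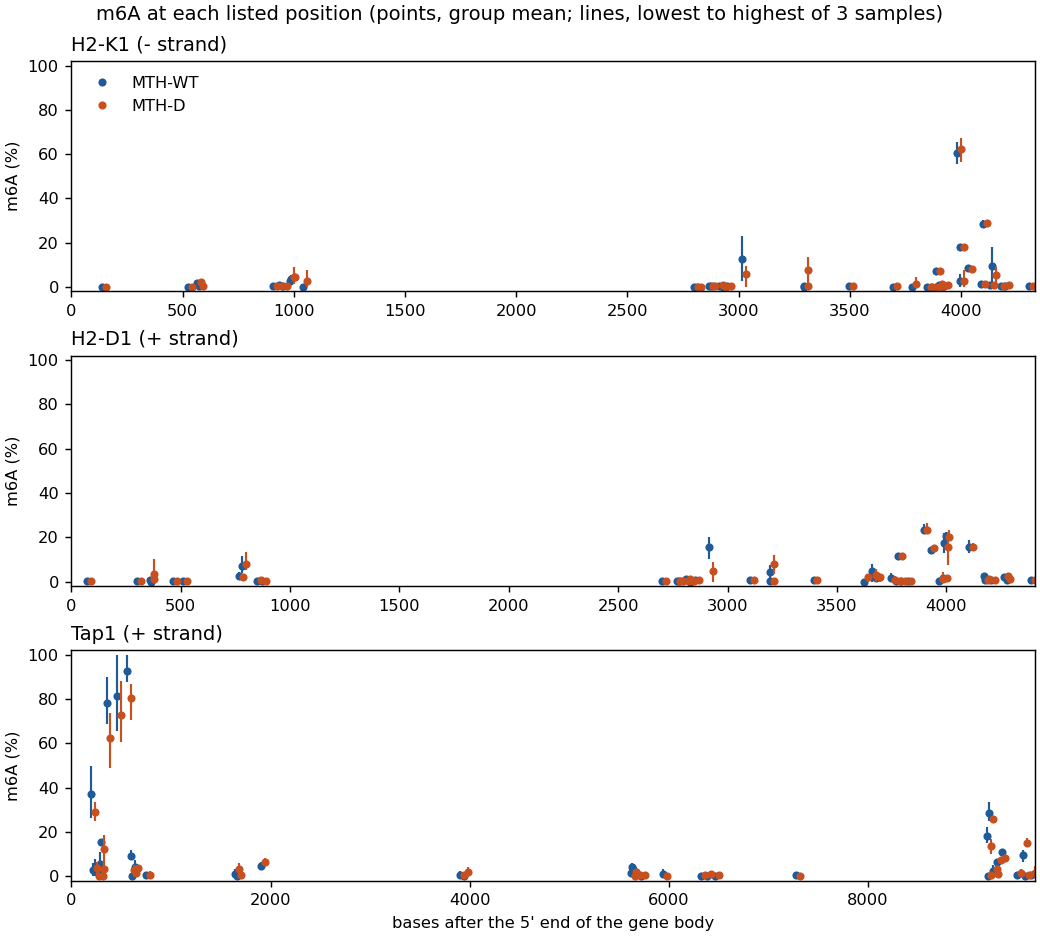
m6A in percent (vertical axes) at each listed position against its distance in bases from the 5′ end of the gene body (horizontal axes, to scale for each gene), with MTH-WT in blue and MTH-D in orange, drawn slightly left and right of the position. Points are group means and lines run from the lowest to the highest of 3 samples. The high positions of H2-K1 and H2-D1 crowd at the 3′ end. Of the 8 Tap1 positions of at least 10%, 5 lie at 213 to 580 bases after the 5′ end. At these 5 the MTH-WT points stand above the MTH-D points. The other 3 lie near the 3′ end, where the differences go both ways.

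The main transcripts of the genes, read from GENCODE M21, give a scale for this. That of H2-K1 is 1619 bases long with a 3′ UTR of 419 bases and holds 34 DRACH motifs, 13 of them in the 3′ UTR. That of H2-D1 is 2102 bases long with a 3′ UTR of 629 bases and 41 motifs, 14 of them in the 3′ UTR. That of Tap1 is 2953 bases long with a 3′ UTR of 451 bases and 50 motifs, of which 9 are in the 5′ UTR, 32 in the coding sequence and 9 in the 3′ UTR. These transcripts belong to another build, so the listed positions were not matched to their motifs. The coding sequences of H2-K1 and H2-D1 are 88.3% identical and their 3′ UTRs 59.1%, and how reads shared by these close relatives were placed is not given in the sources used here, so values in the coding part are uncertain for both.

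The strongest position of H2-K1 was chr17:34215330, 338 bases before the 3′ end. Its m6A was 55.3%, 65.7% and 60.8% in MTH-WT samples 1, 2 and 3, and 56.5%, 67.4% and 62.6% in MTH-D samples 1, 2 and 3. Sample 2 was highest in both groups, and each MTH-D sample exceeded the MTH-WT sample of its number by a margin far smaller than the range within a group. The difference of means was 1.51 points (limma on log2 odds, 0.09 ± 0.31 (SE), adjusted p = 1). The position 222 bases before the 3′ end, chr17:34215214, was at 26.7%, 30.3% and 28.1% in MTH-WT and at 30.3%, 29.6% and 27.1% in MTH-D. The position 324 bases before the 3′ end, chr17:34215316, was at 19.4%, 17.7% and 17.0% in MTH-WT and at 17.1%, 19.0% and 18.2% in MTH-D. In both, the groups covered the same range and no sample stood apart.

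The next highest positions of H2-K1 averaged between 3.98% and 9.33%. At chr17:34216297, 1305 bases before the 3′ end, MTH-WT samples 1, 2 and 3 gave 2.86%, 12.5% and 23.1% and MTH-D samples 0%, 9.52% and 8%, the widest scatter of any H2-K1 position. At chr17:34215283, 291 bases before the 3′ end, the 6 samples lay between 7.68% and 8.88%, and at chr17:34215426, 434 bases before it, between 6.15% and 8.75%. Both of these were tight and overlapped between the groups. At chr17:34215174 the samples ranged from 0% to 18.2% in MTH-WT and from 0% to 9.09% in MTH-D, and at chr17:34218327, the highest position toward the 5′ end, from 1.62% to 5.42% and from 3.77% to 5.55%.

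In H2-D1 the 7 positions of at least 10% averaged between 10.3% and 23.3%, and 6 of them lay 291 to 613 bases before the 3′ end. The highest, chr17:35485976, 498 bases before the 3′ end, was at 22.01%, 26.1% and 21.3% in MTH-WT samples 1, 2 and 3 and at 21.4%, 26.5% and 22.4% in MTH-D samples 1, 2 and 3. The second, chr17:35486077, 397 bases before the end, was at 21.5%, 22.6% and 18.2% in MTH-WT and at 18.3%, 23.2% and 19.2% in MTH-D. The groups overlapped at both, with sample 2 the highest in each group, and the differences of means were 0.267 and -0.523 points.

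The other 3′ positions of H2-D1 overlapped between the groups too. At chr17:35486008, 466 bases before the 3′ end, MTH-WT was at 13.7%, 15.7% and 13.1% and MTH-D at 15.3%, 16.1% and 14.0%, higher by 0.953 points with the same sign in 3 of 3 pairs, with a difference smaller than the spread (limma adjusted p = 0.996). At chr17:35486183, 291 bases before the end, the samples ran from 12.99% to 19.0% in MTH-WT and from 14.4% to 17.5% in MTH-D, and at chr17:35485861, 613 bases before it, from 10.7% to 12.3% and from 10.1% to 12.8%. At chr17:35486069, 405 bases before the end, the range was 12.8% to 21.7% in MTH-WT and 7.69% to 22.2% in MTH-D, the widest among these 6. Over the 6 positions the differences of means lay between -2.04 and 0.953 points. Below 10%, chr17:35482860 toward the 5′ end averaged 7.60%, with sample 2 the highest in MTH-WT at 11.5% and in MTH-D at 13.2%.

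The seventh H2-D1 position, chr17:35484997, lay 1477 bases before the 3′ end and away from the others. It was at 16.7%, 20% and 10.3% in MTH-WT samples 1, 2 and 3 and at 9.09%, 5.88% and 0% in MTH-D samples 1, 2 and 3. All 3 MTH-D samples lay below all 3 MTH-WT samples, by 10.7 points between the means, which did not pass the test (limma, unadjusted p = 0.0539, adjusted p = 0.939). The SE of its log2 odds difference was 0.91, against 0.245 to 0.495 at the others, and the reads behind its values are not known. Among all rows averaging 10 to 20%, 1.41% had a lower difference. The mean over the 7 positions, this one included, was 16.9% ± 2.42 in MTH-WT and 15.2% ± 2.60 in MTH-D (each SD, n = 3), which differ by -1.69 points against -0.081 points over all 43 positions (two-sided exact permutation test over the 7, p = 0.5). Within same-numbered samples the mean over the 7 differed by -1.88, -1.40 and -1.79 points, lower in 3 of 3 pairs. At chr17:35484997 itself the pairs differed by -7.58, -14.1 and -10.3 points, and no other of the 7 was lower in all 3 pairs. Of the 7, MTH-D was lower at 3 and higher at 4, so the mean over them rests largely on this 1 position. With the sample number as a block, the limma p of chr17:35484997 was 0.0246 unadjusted and 0.874 adjusted.

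Tap1 carried the highest m6A of the 3 genes, at 3 positions close to its 5′ end. At chr17:34407108, 580 bases after the 5′ end, MTH-WT samples 1, 2 and 3 were at 89.7%, 100% and 87.8% and MTH-D samples 1, 2 and 3 at 84.2%, 87.0% and 70.4%. All MTH-D samples lay below all MTH-WT samples, and the difference of means was -11.99 points (limma on log2 odds, -2.07 ± 1.08 (SE), unadjusted p = 0.1, adjusted p = 0.939). At chr17:34407009, 481 bases after the 5′ end, MTH-WT was at 78.4%, 100% and 65.6% and MTH-D at 70%, 88.2% and 60.5%. At chr17:34406900, 372 bases after the 5′ end, MTH-WT was at 90.2%, 75.0% and 69.0% and MTH-D at 64.7%, 73.7% and 48.8%. At these latter positions the groups overlapped while MTH-D was lower in 3 of 3 pairs, with differences of -8.43 and -15.7 points between the means, and neither passed the test (limma adjusted p = 0.939 for both). In the limma fit with the sample number as a block, the unadjusted p was 0.0501 at chr17:34407108, 0.128 at chr17:34407009 and 0.0760 at chr17:34406900. None passed after adjustment (limma, adjusted p = 0.874 for each).

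The standing of these 3 positions among positions of like level is given as a description. Of all rows averaging 70 to 80%, 0.743% had a lower difference than chr17:34406900 and 6.07% a lower one than chr17:34407009. Of all rows averaging 80 to 90%, 1.07% had a lower difference than chr17:34407108. The size of these differences rested in large part on single samples. Without MTH-D sample 3 the difference was -8.86 points at chr17:34406900 and -6.92 points at chr17:34407108. With all 6 samples, the 5th percentile of rows of like level was -9.30 and -7.78 points. These percentiles were not recomputed without that sample, so the standing without it is not known. Without MTH-WT sample 1 it was -9.59 points at chr17:34406900. At chr17:34407009 it was 0.898 points without MTH-WT sample 2, -2.23 points without MTH-D sample 3, -16.3 points without MTH-WT sample 3 and -16.1 points without MTH-D sample 2. The mean of the 3 positions was 86.1%, 91.7% and 74.1% in MTH-WT samples 1, 2 and 3 and 73.0%, 83.0% and 59.9% in MTH-D samples 1, 2 and 3, lower within each number while the groups overlapped. The other 35 positions averaged 4.99%, 5.20% and 4.76% in MTH-WT samples 1, 2 and 3 and 4.01%, 4.60% and 4.53% in MTH-D samples 1, 2 and 3. Here all MTH-D samples lay below all MTH-WT samples, by -0.602 points or -12.1% of the MTH-WT mean, next to -13.4% for the whole gene. The split was made after the values were seen and was not tested. These 35 hold further positions of the same 5′ stretch, whose 13 positions together differed by -4.37 points. The 11 positions at the 3′ end differed by -0.118 points. Between these stretches, 3 positions differed by 1.52 points, 2 by 0.713, 8 by -0.561 and 1 by -0.55. Outside the 5′ stretch the differences thus went both ways, and the lower mean of the 35 does not show a drop shared along the gene. Over all 38 positions, MTH-D was lower at 20 and higher at 18. The values of MTH-WT sample 2 at chr17:34407009 and chr17:34407108 were exactly 100%, and the reads behind them are not known.

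The 2 other high positions near the 5′ end were lower in level and overlapped between the groups. At chr17:34406741, 213 bases after the 5′ end, MTH-WT was at 34.8%, 50% and 26.3% and MTH-D at 25.0%, 29.4% and 33.3%. At chr17:34406840, 312 bases after the 5′ end, MTH-WT was at 14.6%, 16.7% and 14.8% and MTH-D at 16.2%, 18.8% and 2.08%. In the first, the pairs went in different directions, and in the second MTH-D sample 3 alone was low. Over all 13 positions of this stretch the mean was 25.4% ± 2.27 in MTH-WT and 21.0% ± 3.34 in MTH-D (SD, n = 3).

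The 3′ positions of Tap1 went both ways. At chr17:34415761, 439 bases before the 3′ end, MTH-WT was at 33.3%, 27.8% and 24.8% and MTH-D at 25.4%, 26.2% and 26.0%. At chr17:34415744, 456 bases before it, MTH-WT was at 17.2%, 15.0% and 22.1% and MTH-D at 14.3%, 16.7% and 9.89%. The groups overlapped at both. At chr17:34416106, 94 bases before the 3′ end, MTH-WT was at 11.8%, 10.3% and 6.58% and MTH-D at 13.5%, 17.3% and 13.7%, so that all MTH-D samples lay above all MTH-WT samples, by 5.29 points between the means (limma, unadjusted p = 0.0689, adjusted p = 0.939). At chr17:34415889, 311 bases before the 3′ end and outside the naming rule, picked after its values were seen, MTH-WT was at 10.9%, 10.5% and 11.03% and MTH-D at 8.64%, 7.14% and 9.57%, with all MTH-D samples below all MTH-WT samples (limma adjusted p = 0.939). The 11 positions of the 3′ stretch averaged 7.23% ± 0.812 in MTH-WT and 7.11% ± 0.391 in MTH-D (each SD, n = 3), which differ by -0.118 points.

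**Figure D3:**
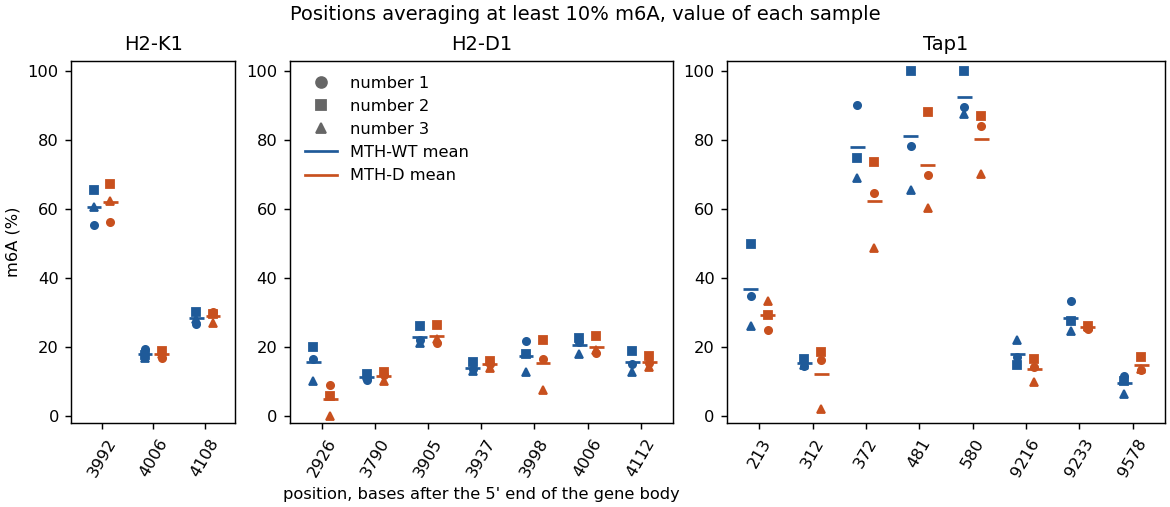
m6A in percent (vertical axes) in each sample at the 18 positions averaging at least 10%, named by their distance in bases from the 5′ end of the gene body, with MTH-WT in blue and MTH-D in orange. Shapes give the sample number and short lines the group means. At 580 in Tap1 the MTH-D samples reach 87.0% at most and the MTH-WT samples start at 87.8%, and at 2926 in H2-D1 MTH-D reaches 9.09% and MTH-WT starts at 10.3%, while at 9578 in Tap1 MTH-D is the higher group.

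Of the 18 positions averaging at least 10%, MTH-D was lower at 0 of 3 in H2-K1, at 3 of 7 in H2-D1 and at 7 of 8 in Tap1, against 57.9% of all such rows. The median difference was 0.587 points in H2-K1, 0.040 points in H2-D1 and -6.15 points in Tap1, against -0.687 points over all such rows. MTH-D was lower in all 3 pairs at 0 positions in H2-K1, 1 in H2-D1 and 3 in Tap1, against 16.4% of all such rows. Groups that did not overlap, with MTH-D lower, were seen at 0, 1 and 1 positions, against 3.38%, and with MTH-D higher at 0, 0 and 1, against 2.07%. The positions of a gene are read from the same RNA strands and are not independent of each other, so these counts carry no test.

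**Figure D4:**
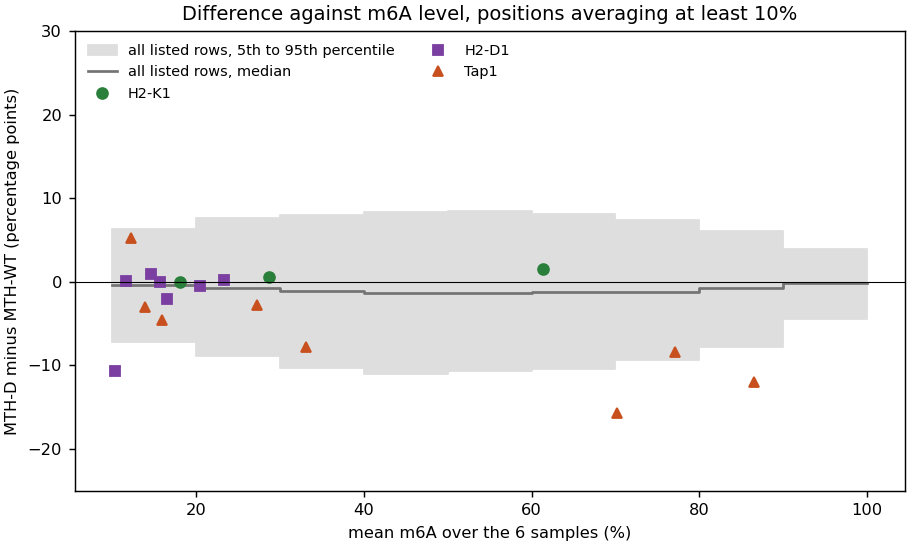
Difference of MTH-D from MTH-WT in percentage points (vertical axis) against the mean m6A over 6 samples (horizontal axis) at the 18 positions averaging at least 10%. The grey band spans the 5th to 95th percentile of all 81446 such rows in steps of level and the grey line is their median. Tap1 positions at chr17:34406900 (-15.7 points) and chr17:34407108 (-11.99 points) and the H2-D1 position at -10.7 points lie below the band, and the 3 H2-K1 positions lie between 0.040 and 1.51 points. The band is of all 6 samples and was not recomputed with a sample left out.

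Tested singly over all 567667 rows with limma on the log2 odds, none of the 121 positions passed an adjusted p of 0.05, and of all rows 0% did. The lowest adjusted p among the 121 was 0.939. At an unadjusted p under 0.05 there were 1 position in H2-K1, 0 in H2-D1 and 1 in Tap1, against 3.22% of all rows. Both are outside the naming rule and were picked after their values were seen. The H2-K1 position, chr17:34216018, was at 0% in all MTH-WT samples and at 0%, 13.3% and 9.09% in MTH-D samples 1, 2 and 3 (limma, unadjusted p = 0.0470). The Tap1 position, chr17:34407142, 614 bases after the 5′ end, was at 7.94%, 7.14% and 11.8% in MTH-WT and at 3.57%, 0% and 4.88% in MTH-D, without overlap (limma, unadjusted p = 0.0414). With the sample number as a block, 1 position in each gene had an unadjusted p under 0.05, against 3.05% of all rows, and MTH-D was lower at each of them. They were chr17:34216297 in H2-K1, chr17:35484997 in H2-D1 and chr17:34407142 in Tap1, and none passed after adjustment over all rows (limma, adjusted p = 0.874 for each).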

How the data were processed

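Nanopore direct RNA sequencing of 6 samples, 3 MTH-WT and 3 MTH-D, gave the m6A values, with groups and numbers taken from the sample titles. The authors deposited the m6A fraction, from 0 to 1 with 4 decimals, at 567667 rows, 3 of which repeat a position outside the 3 genes. The submitters' processing notes name GRCm39, minimap2 2.26 and SAMtools. The basecaller, the m6A caller and the filters are not given in the sources used here. Coverage was not given, so the read-based test planned was replaced by the one planned for fractions alone.

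Fractions were multiplied to percent, and listed positions, counted from 0, were written counted from 1. Gene bodies were those of GRCm39. Reference annotation used here (GENCODE M21) is on another build and served only for strand, identifiers and transcript composition, so that the planned list of 26 related genes was not analysed here, and windows of 5 kb took the place of genes in the background.

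Gene means were compared by two-sided exact permutation tests (scipy 1.17.1). Fits used limma 3.58.1 under R 4.3.3. Single rows were fitted on log2 odds with 1 percentage point added to both shares, and features with at least 5 rows on their mean percent with a variance trend, each with Benjamini-Hochberg adjustment over all rows or features and a threshold of 0.05. The limma fits without a block were tried on simulated data with known changes, and the other steps were not. Named positions were, in each gene, the 8 with the highest mean over all samples and, among those averaging at least 10%, up to 5 with the largest difference of 1 sign in all 3 pairs, and others are marked as picked after their values were seen. The genes, lists and tests were chosen with earlier results of these data known.

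After subtracting group means, samples sharing a number correlated across groups at 0.164, 0.223 and 0.133 over rows averaging at least 10%, each the highest for that number, so the numbers in the titles pair the samples, and the methods call the controls paired. The p-values measure the spread between these samples, which are clones of single cells. The alternatives left out each sample, used the samples numbered 1 and 3, added the sample number as a block, and changed the minimum level, the summary, the log odds offset and scale, and the minimum rows per feature. Leaving out both samples numbered 1 or 3, the block with samples 1 and 3, and windows of 10 kb were chosen after seeing the data.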

Additional observations from a re-analysis of the deposited data

How the results depend on the processing

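The difference of Tap1 kept its sign under all 14 alternatives, between -6.11 points (positions averaging at least 10%) and -0.283 points (median over positions). The exact permutation p cannot go below 0.2 with 1 sample left out or below 0.333 with 2 samples a group, so those p-values bear on no call, and Tap1 was at 0.2 without MTH-WT sample 3 and without MTH-D sample 2. No position of the 3 genes and none of the 3 genes passed an adjusted p of 0.05 in limma under any alternative run, with a lowest adjusted p of 0.0664 for positions and 0.724 for genes. The sign changes came at small differences. That of H2-K1 was -0.163 points in the samples numbered 1 and 3 and ran from -0.351 to 0.494 points with 1 sample left out. That of H2-D1 was 0.0800 points by the median, 0.0461 points over positions where no sample stood at 0 or 100%, and ran from -0.364 to 0.146 points with 1 sample left out. The cause was not tested. With the sample number as a block, the pairing left the gene differences at 0.154, -0.0809 and -1.50 points for H2-K1, H2-D1 and Tap1 (exact sign-flip p = 1, 0.5 and 0.25) and changed no call at an adjusted p of 0.05. Without MTH-D sample 2, the Tap1 difference was -2.04 points. The unknown depth limits every single position, most of all in Tap1, where most positions hold a value of exactly 0 or 100%.

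Of the 27 positions recomputed, 13 kept their sign in every alternative. With 1 sample left out, the differences that changed sign ran, in points, in H2-K1 from -8.5 to 0.593 at chr17:34215174, -0.252 to 1.56 at chr17:34215214, -0.49 to 0.73 at chr17:34215316, -1.13 to 4.36 at chr17:34215330, -0.56 to 0.655 at chr17:34215426 and -0.183 to 1.72 at chr17:34218327. In H2-D1 they ran from -1.38 to 3.35 at chr17:35482860, -0.428 to 0.887 at chr17:35485861, -1.26 to 1.75 at chr17:35485976, -5.39 to 1.88 at chr17:35486069, -2.002 to 0.443 at chr17:35486077 and -1.32 to 1.69 at chr17:35486183. In Tap1 they ran from -6.19 to 2.14 at chr17:34406840 and -16.3 to 0.898 at chr17:34407009. Without both samples numbered 1, the changed differences were -0.91 at chr17:34215214, -0.545 at chr17:35485861, 0.8 at chr17:35486077 and -0.055 at chr17:35486183 points. In samples 1 and 3, the changed differences were -0.59 at chr17:34215316, -0.525 at chr17:34215426 and -0.075 at chr17:35485861 points. Without both samples numbered 3, the changed differences were -0.54 at chr17:34215316, -0.055 at chr17:34215426, -0.14 at chr17:35485976, -0.655 at chr17:35486183 and 1.88 at chr17:34406840 points.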
